A study of Mus musculus with 4 samples.

Results

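CG methylation was read at the paternally methylated imprinted domains around Rasgrf1 and Zdbf2 in mouse sperm. The Rasgrf1 domain was taken as chromosome 9, positions 89760000 to 89930000, and the Zdbf2 domain as chromosome 1, positions 63200000 to 63380000, both on mm9. A CG site was kept where both strands together had at least 5 reads in each of the 4 libraries. This left 210 of the 1704 CG sites listed in the Rasgrf1 domain (12.3%) and 417 of 1983 in the Zdbf2 domain (21.0%), against 2638319 of 21342492 sites (12.4%) on chromosomes 1 to 19, X and Y.

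The sperm came from wild-type mice of the C57BL/6 strain, as labelled. Swim-up sperm is the motile fraction, which the study describes as taken from the upper medium of caudal epididymis culture. Histone replacement-completed sperm (HRCS) are sperm heads from mildly sonicated total sperm of the caudal epididymis and vas deferens. The heads were recovered by precipitation through 82% Percoll. The fractions therefore also differ in handling and possibly in tissue source, which cannot be told apart from histone replacement when they are compared. Each fraction was put through targeted bisulfite sequencing (TGBS) as 2 libraries, all 4 of which had the same DNA enrichment and bisulfite treatment and carried no other treatment or allele. TGBS enriches chosen regions with capture probes and then reads methylated cytosines, which bisulfite leaves unconverted. The labels do not say that replicates came from separate animals, so the p-values of the permutation, edgeR and limma tests measure only the spread between these libraries. A read counted at a CG site is given as a call, of which there were 78562921 and 71379227 per library for swim-up sperm and 89403347 and 78381101 for HRCS. Kept sites had a median of 17 to 22 reads per library in the Rasgrf1 domain and of 19 to 23 in the Zdbf2 domain.

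An imprinted gene is expressed from 1 parental allele, and the choice follows DNA methylation that differs between the parental chromosomes. Most such marks are laid down in the oocyte. Rasgrf1 and Zdbf2 belong to the small group of mouse genes at which the paternal chromosome carries methylation between genes. Rasgrf1 encodes an exchange factor that activates Ras and is expressed from the paternal allele in neonatal brain, and its control region lies upstream of the gene, where methylation is set in male germ cells. Zdbf2 encodes a zinc finger protein and is also expressed from the paternal allele. It has a canonical start and a start far upstream within Gpr1, whose transcript is known as Liz. The paternally methylated region of Zdbf2 lies between those starts, upstream of the canonical one.

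The 250 bases before each of these starts are shown because most kept sites of the domains lie in long stretches with many CG sites such as these. The low levels below refer to them. Such stretches are called islands here, although no annotation of CpG islands was used. Capitals mark the CG sites that were kept. The sequences are RefSeq entries on GRCm38.p6, all on the plus strand, at chr9:89909525-89909774 for Rasgrf1, chr1:63273019-63273268 for the canonical Zdbf2 start and chr1:63200108-63200357 for the upstream Zdbf2 start. Each was placed on mm9 by its spacing of CG sites, which matched 1 place in the deposited tables. The starts then lie at mm9 positions 89804613, 63319843 and 63246932.
Rasgrf1: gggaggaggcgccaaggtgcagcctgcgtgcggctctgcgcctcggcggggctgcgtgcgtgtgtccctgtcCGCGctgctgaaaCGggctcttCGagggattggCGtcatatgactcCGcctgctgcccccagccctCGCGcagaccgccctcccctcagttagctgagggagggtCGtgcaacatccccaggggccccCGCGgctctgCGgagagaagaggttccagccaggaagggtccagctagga
Zdbf2, canonical start: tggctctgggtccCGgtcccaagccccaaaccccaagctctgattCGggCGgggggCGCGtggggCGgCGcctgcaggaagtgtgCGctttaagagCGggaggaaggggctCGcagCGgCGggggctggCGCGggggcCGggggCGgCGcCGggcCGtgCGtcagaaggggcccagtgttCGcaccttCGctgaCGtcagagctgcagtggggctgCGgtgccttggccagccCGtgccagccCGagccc
Zdbf2, upstream start: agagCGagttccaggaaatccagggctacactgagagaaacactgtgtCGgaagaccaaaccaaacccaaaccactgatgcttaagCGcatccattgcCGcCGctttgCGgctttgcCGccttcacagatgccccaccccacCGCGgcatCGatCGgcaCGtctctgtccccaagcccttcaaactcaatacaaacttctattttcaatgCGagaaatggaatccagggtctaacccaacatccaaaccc

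In these 250 bases, 12 of 21 CG sites were kept before the Rasgrf1 start, 26 of 26 before the canonical Zdbf2 start and 13 of 13 before the upstream Zdbf2 start. In the Rasgrf1 promoter entry as a whole, which also holds the first bases of the transcript, the 16 kept sites had a mean level of 0.521% and 0.781% in swim-up sperm against 0.568% and 0.694% in HRCS. At the upstream Zdbf2 start the 15 kept sites of the entry had 1.24% and 0.533% in swim-up sperm against 1.03% and 2.99% in HRCS. The 37 kept sites of the canonical Zdbf2 entry had more, 3.08% and 6.66% in swim-up sperm against 5.84% and 4.83% in HRCS. Its highest site, with a mean of 54.9%, is 1 of 3 neighbouring sites after the start that are described below. The 43 kept sites from 63319310 to 63319874 include all other kept sites of the entry. They had 0.929% and 1.45% in swim-up sperm against 1.24% and 0.389% in HRCS.

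Over whole domains, the kept sites had low mean levels. These means do not test the label of the domains as methylated, which concerns regions between genes. No site of the Rasgrf1 control region was kept, and 151 of the 210 kept Rasgrf1 sites lay in 1 stretch across the gene start. The 25 calls in the control region were all methylated, as described below. The mean site level of the Rasgrf1 domain came to 18.0% and 17.1% for swim-up sperm, and both HRCS libraries had 17.2%. The Zdbf2 domain had 16.8% in both swim-up libraries and 16.7% in both HRCS libraries. Over all kept sites of the series, the means of the fractions were both 34.9%.

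The levels fell into a low and a high class with little between. Of the 210 Rasgrf1 sites, 174 (82.9%) had a mean over the 4 libraries of at most 25%, 2 were over 25 to 50%, 0 were over 50 to 75% and 34 (16.2%) were over 75%. Of the 417 Zdbf2 sites, 336 (80.6%) were in the lowest class, 10 and 16 in the middle classes and 55 (13.2%) in the highest. Over the series these shares were 61.7%, 3.20%, 3.14% and 31.9%. No methylated read was counted in any library at 72 of the 210 sites of the Rasgrf1 domain and 155 of the 417 of the Zdbf2 domain, against 566334 of 2638319 in the series.

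**Figure D1:**
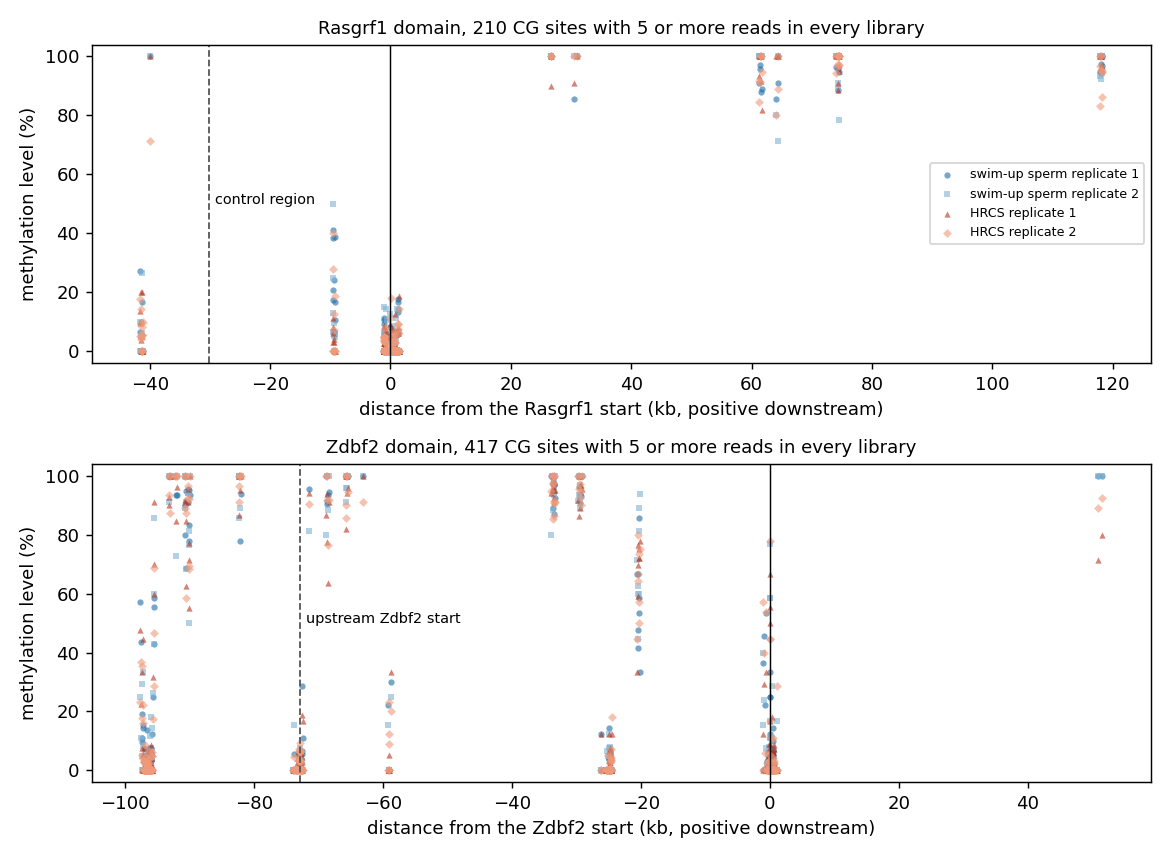
Methylation level (%) of each kept CG site against its distance in kb from the Rasgrf1 start (top) and from the canonical Zdbf2 start (bottom), with 1 point per library. The 210 and 417 sites lie mostly in clusters near 0% or near 100%, and none lies at the Rasgrf1 control region, which the dashed line of the top panel marks.

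Most sites of the low class lay in the islands, the long stretches with many CG sites. The largest low stretch of the Rasgrf1 domain, where a stretch is a run of at least 5 consecutive kept sites of 1 class no more than 1000 bp apart, ran from 89803502 to 89806024 across the gene start. It held 151 sites, more than any other stretch of the domain, with 7.06 CG sites per 100 bp. Its mean level came to 1.40% and 0.949% for swim-up sperm against 1.30% and 1.18% for HRCS. The fractions overlapped, at 1.17% ± 0.317 (SD, n = 2) and 1.24% ± 0.0878 (two-sided exact permutation test over libraries, p = 1.00). The highest site of the stretch had a mean of 7.92%, and 70 of its sites had no methylated read in any library.

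The other low stretches of the Rasgrf1 domain were upstream of the gene. The fractions did not overlap in either, which makes 2 of 6 stretches of the domain and 6 of 18 over both domains. For 200 bp windows of the series the share was 32.7%. Windows are another unit, and no share over stretches of the series was computed. The 15 sites from 89763052 to 89763445 had 4.04% and 3.19% in swim-up sperm against 5.12% and 6.03% in HRCS, so HRCS was higher. The 8 sites from 89795152 to 89795468 had 17.7% and 5.58% in swim-up sperm against 2.08% and 4.799% in HRCS, so HRCS was lower, with swim-up replicate 1 the farthest from the rest. The exact permutation p was 0.333 for both, the smallest that 2 libraries against 2 allow.

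The windows of 200 bp with the most kept sites in the Rasgrf1 domain all lay in the island across the gene start. The window from 89805801 (20 sites) had levels of 2.68% and 0.333% in swim-up sperm against 2.34% and 2.32% in HRCS. The window from 89803401 (17 sites) had 2.46%, 0.368%, 0.948% and 1.29% in the same order, and the window from 89805001 (16 sites) had 1.52%, 0.947%, 0.919% and 0.775%. All of these levels were below 3%. The other tested windows within 500 bp of the start had means over the 4 libraries of 1.12% from 89804001, 0.855% from 89804401, 0.603% from 89804601 and 1.35% from 89804801. Without swim-up replicate 1, which let 15 sites be kept in place of 12, the window from 89804401 had 1.91%.

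Zdbf2 had islands at both of its starts. That of the canonical start also held starts of Gm11608 on the minus strand, placed at 63319830, 63319747 and 63319381. Around the canonical start, 43 sites from 63319310 to 63319874 had 0.929% and 1.45% in swim-up sperm against 1.24% and 0.389% in HRCS. A further 75 sites from 63319926 to 63320922 had 1.24%, 0.882%, 1.28% and 1.07% in the same order. The upstream start lay in a stretch of 48 sites from 63245931 to 63247436 with 1.89% and 0.839% in swim-up sperm against 1.66% and 1.87% in HRCS. The fractions overlapped in these stretches, with exact permutation p of 0.667, 0.667 and 1.00.

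By windows, the island of the upstream start had means over the 4 libraries of 0.110% from 63246401, 1.56% from 63246601, 1.54% from 63246801, 1.57% from 63247001 and 2.92% from 63247201. Before the canonical start the window from 63319401 had 1.06%. The window before that, from 63319201 (5 sites), was higher, at 11.3% and 2.31% in swim-up sperm against 7.08% and 11.3% in HRCS. With a minimum of 20 reads its mean over the libraries was 0.989%.

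The domain held more low islands than those of Zdbf2 itself. The stretch with the most sites, 97 from 63222698 to 63224073, covered the start of Eef1b2, a translation elongation factor gene that lies beside Gpr1. The fractions did not overlap there, with 1.17% the lower library of swim-up sperm and 0.992% the higher of HRCS (1.34% ± 0.233 and 0.851% ± 0.199, exact permutation p = 0.333). A stretch of 61 sites from 63293689 to 63295333, where none of the placed RefSeq promoter entries lies, had 0.939% and 1.26% in swim-up sperm against 1.49% and 0.813% in HRCS. The windows with the most kept sites were those from 63320201 (27 sites, mean of the 4 libraries 1.20%), 63295001 (26 sites, 1.03%) and 63319601 (23 sites, 0.993%).

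**Figure D2:**
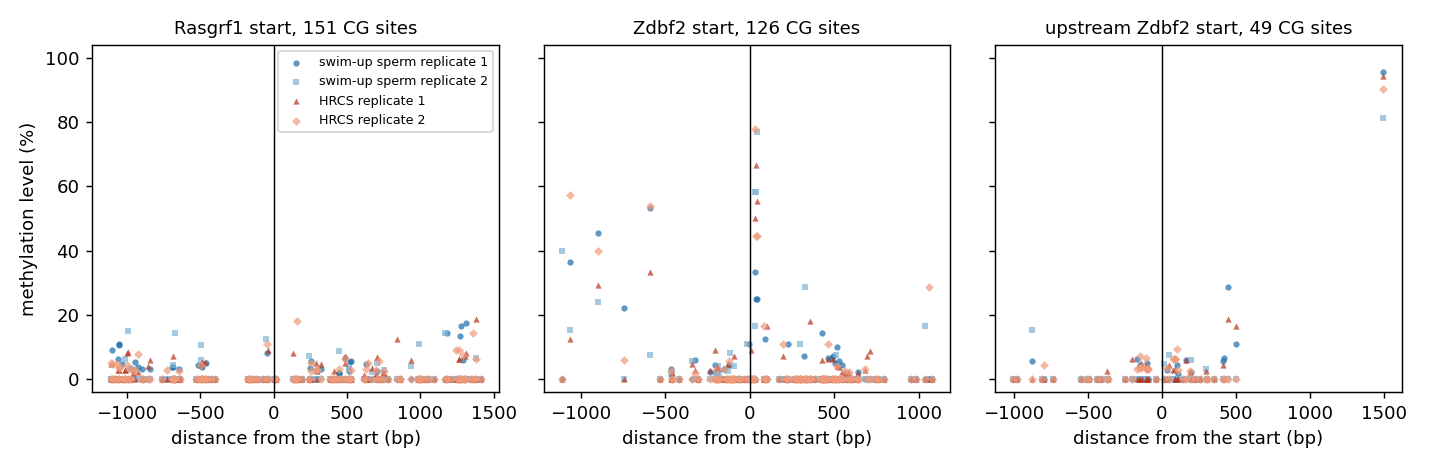
Methylation level (%) of kept CG sites close to the Rasgrf1 start, the canonical Zdbf2 start and the upstream Zdbf2 start, against the distance from the start in bp, with 1 point per library. The sites lie close to 0% in all 4 libraries except for a group right after the canonical Zdbf2 start, some sites further upstream of it and 1 high site beyond the upstream island.

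A low level at a CG-dense window was the rule in these libraries. In the series, 99.7% of tested windows in which 20 or more CG sites are listed, kept or not, were at most 25% methylated. The share was 97.4% with 15 to 19 sites, 86.9% with 10 to 14, 59.1% with 6 to 9 and 28.6% with 3 to 5. The island of the upstream Zdbf2 start was less dense, at 3.32 CG sites per 100 bp. Its windows named above listed 6 to 12 sites. The 3 Rasgrf1 and 6 Zdbf2 windows with 20 or more listed sites were all low. Of the windows with 3 to 5 listed sites, 3 of 8 were low in the Rasgrf1 domain and 7 of 14 in the Zdbf2 domain. In all, 16 of the 21 Rasgrf1 windows and 30 of the 40 Zdbf2 windows with at least 3 kept sites were at most 25% methylated, against 50.9% of windows in the series, and 5 and 8 were over 75%, against 40.3%.

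Among kept sites, the highly methylated ones were sparse and lay away from the islands. This does not cover the Rasgrf1 control region, which listed 23 CG sites in 301 bp. All 25 of its calls were methylated, but none of its sites was kept. All high stretches of the Rasgrf1 domain were downstream of the gene start. The 10 sites from 89878622 to 89879220 had 97.5% and 95.8% in swim-up sperm against 97.1% and 98.6% in HRCS. The 8 sites from 89922488 to 89922917 had 97.9%, 97.5%, 98.04% and 94.0%, and the 7 sites from 89865879 to 89866307 had 94.4%, 100%, 95.3% and 94.6%. These stretches held 1.63 to 1.86 CG sites per 100 bp, and the lowest exact permutation p between fractions was 0.667.

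In the Zdbf2 domain the high stretches lay on the upstream side of the canonical start. The stretch with the most sites, 11 from 63285949 to 63286505, had 95.9% and 95.4% in swim-up sperm against 95.6% and 94.0% in HRCS. The 8 sites from 63290104 to 63290673 had 96.7%, 95.4%, 94.5% and 96.2%, and the 7 sites from 63226648 to 63227888 had 98.1%, 94.8%, 94.8% and 97.3%. The fractions overlapped in each of these 3 stretches and did not in the 3 with fewer sites (exact permutation p = 0.333 for each), as counted in the 6 of 18 above. The 6 sites from 63237504 to 63237801 had 95.3% and 95.8% in swim-up sperm against 96.9% and 97.9% in HRCS, where HRCS was higher. The 6 sites from 63254078 to 63254427 had 100% and 97.1% in swim-up sperm against 95.3% and 95.03% in HRCS, where HRCS was lower. A stretch of 5 sites from 63251091 to 63251444 had 93.9% and 93.6% in swim-up sperm against 82.5% and 92.0% in HRCS, with most of the gap carried by HRCS replicate 1 (93.8% ± 0.187 and 87.2% ± 6.68).

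At the control region of Rasgrf1, chromosome 9 from 89774400 to 89774700 on mm9, none of the 23 listed CG sites was kept. No site there had more than 1 read in any library. All calls in the region were methylated. There were 15 of 15 in swim-up replicate 1, 3 of 3 in swim-up replicate 2 and 7 of 7 in HRCS replicate 1, while HRCS replicate 2 had 0 calls. Together these are 25 of 25 (100%, 95% Wilson interval 86.7% to 100%), with 18 of 18 in swim-up sperm (82.4% to 100%) and 7 of 7 in HRCS (64.6% to 100%). A read is counted at each site it spans, so neighbouring calls can come from 1 read. With reads of 100 cycles and at most 1 read per site in a library, the 25 calls rest on fewer reads than calls. The number of reads is not given. The intervals here and for the segments below treat every call as independent and are therefore narrower than counting error would allow. No difference between fractions could be tested at this depth.

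The windows that overlap the control region had few calls as well. The window from 89774401 had 11 methylated of 11 calls over the 4 libraries, the window from 89774601 had 30 of 34, and the window from 89774201 had 1 CG site and 0 calls. Over the 2000 bp from 89774001 to 89776000, swim-up sperm had 24 of 25 and 17 of 21 calls methylated. HRCS had 22 of 31 and 15 of 24. By share, both HRCS libraries (71.0% and 62.5%) were below both swim-up libraries (96.0% and 81.0%). This gap was not tested, and no share of such gaps over segments of the series is given. The next 2000 bp, from 89776001, were mostly unmethylated, with 6 of 35 and 8 of 38 in swim-up sperm and 21 of 106 and 13 of 59 in HRCS. That drop between neighbouring segments was present in each of the 4 libraries.

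Most of both domains had too few reads for a kept site. When the domains were cut into segments of 2000 bp, a description chosen after the levels had been seen, 72 of 85 Rasgrf1 segments and 69 of 90 Zdbf2 segments held no kept site. Of these, 25 and 28 had at least 20 calls over the 4 libraries together. In 23 of the 25 and 23 of the 28, over 75% of the calls were methylated. The calls at sites that were not kept were 66.9% ± 2.07 methylated in swim-up sperm and 67.0% ± 2.27 in HRCS in the Rasgrf1 domain (SD, n = 2, exact permutation p = 1.00). In the Zdbf2 domain they were 52.9% ± 3.42 and 48.8% ± 2.29 (exact permutation p = 0.333). Both pairs of values were above the means of the kept sites, but they are shares of calls and the kept means are means of site levels. No value over the series is given for such segments or sites, so these levels are not shown to be particular to the domains.

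Upstream of the canonical Zdbf2 start, the segment from 63310001 to 63312000 had 35 of 35 and 31 of 31 methylated calls in swim-up sperm and 24 of 26 and 8 of 8 in HRCS. This segment listed 53 CG sites, none of them kept. The segment before it, from 63308001, had 2 of 31 and 4 of 35 in swim-up sperm and 3 of 14 and 2 of 10 in HRCS. The level thus differed between these neighbours in each library. Low segments also lay downstream of the canonical start, where the one from 63354001 (52 CG sites) had 2 of 181, 0 of 111, 1 of 92 and 1 of 61 methylated calls and the one from 63356001 (69 CG sites) had 2 of 86, 1 of 78, 1 of 161 and 1 of 100, in the order of the libraries above.

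**Figure D3:**
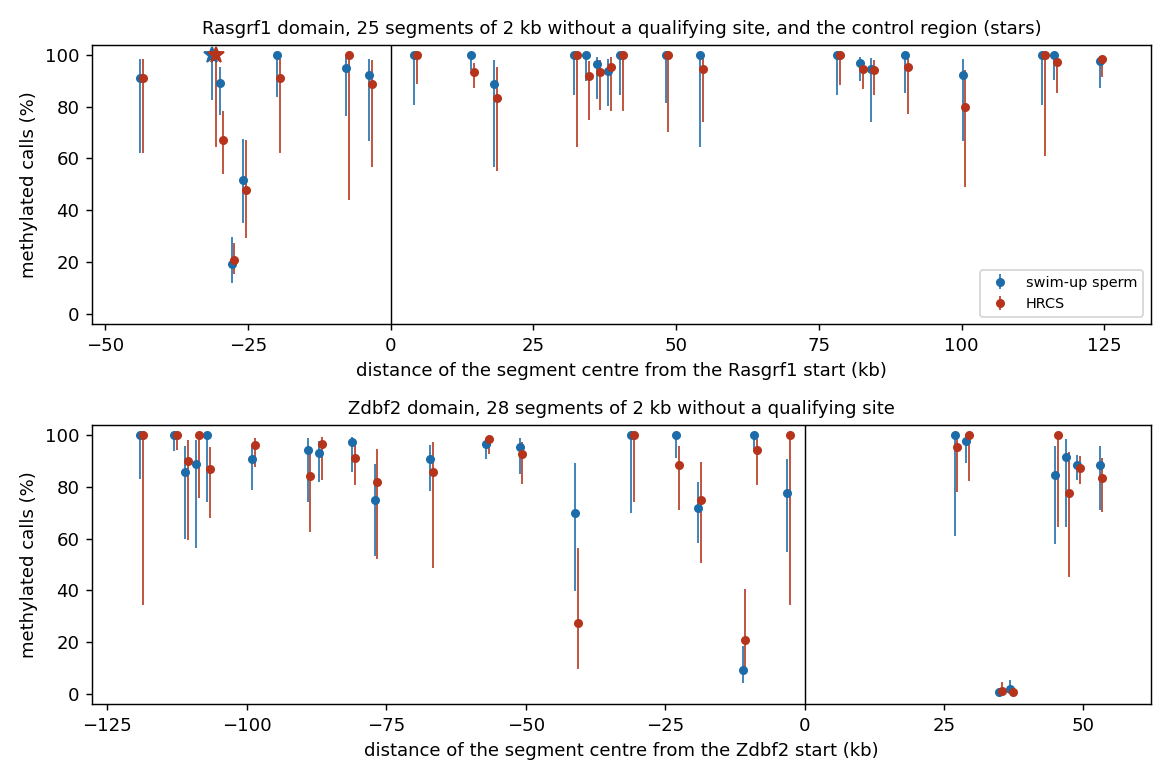
Share of methylated calls (%) in segments of 2000 bp that held no kept site and had at least 20 calls over the 4 libraries, against the distance of the segment centre from the Rasgrf1 start (top) and the canonical Zdbf2 start (bottom) in kb. Points are calls pooled over the 2 libraries of a fraction, bars are 95% Wilson intervals that treat each call as independent, stars are the Rasgrf1 control region (18 of 18 and 7 of 7 calls), and most segments lie over 75% in both fractions.

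Intermediate levels, over 25 to 75%, were found in 0 of 21 Rasgrf1 windows and 2 of 40 Zdbf2 windows, against 8.77% of windows in the series. By single sites they were limited in the Rasgrf1 domain to those at 89795011 and 89795054, at the edge of a low stretch. The first had 38.5% and 25% in swim-up sperm against 8.33% and 40% in HRCS at 8 to 13 reads, and the second had 41.2%, 50%, 11.1% and 27.8% at 16 to 18 reads. HRCS replicate 1 was the lowest library at both sites, and the fractions overlapped at the first and not at the second.

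Of the intermediate Zdbf2 windows, the one from 63299401 (6 sites, 72 to 118 calls) had 58.9% and 66.2% in swim-up sperm against 70.8% and 65.2% in HRCS. It lay near the start of 1700039I01Rik, which was placed at 63299770 and whose promoter entry held 0 kept sites. The window from 63224201 (3 sites, 33 to 54 calls), at the downstream edge of the Eef1b2 island, had 41.1%, 51.6%, 64.2% and 44.3%. The fractions overlapped in both windows.

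Right after the canonical Zdbf2 start, 3 neighbouring sites stood out from an otherwise unmethylated island. They were singled out after their values had been seen. At 33, 38 and 43 bp after the start, their levels ranged from 25% to 77.8% over the libraries, at 8 to 13 reads. The mean of the 3 sites was 27.8% and 64.5% in swim-up sperm against 57.4% and 55.6% in HRCS (46.2% ± 26.0 and 56.5% ± 1.31, exact permutation p = 1.00). The swim-up libraries were the lowest and the highest of the 4. The site at 48 bp, which was not kept because HRCS replicate 2 had 1 read, had 28.6%, 58.3% and 55.6% in the other libraries. Counted from the Gm11608 start at 63319830, the 3 kept sites lie at -46, -51 and -56 bp.

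The sites lie in a short run of repeated CG units. The run covers 30 to 49 bp after the start, at chr1:63273299-63273318 on the plus strand of GRCm38.p6, and capitals mark its CG sites, which begin at 31, 33, 38, 43 and 48 bp.
Zdbf2, after the canonical start: aCGCGctcCGctcCGctcCG

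Methylated calls at the 3 kept sites were all on the minus strand, as the tables write it, with 62 of 99 there and 0 of 18 on the plus strand. The site at 31 bp had 2 of 42 calls methylated over the libraries and the site at 56 bp had 0 of 26. The window that holds the run, from 63319801 (19 sites), had 5.63% and 11.7% in swim-up sperm against 10.4% and 9.65% in HRCS, above the 0.830% to 1.80% and 0.325% to 0.505% of the next window, from 63320001. Its mean over the libraries of 9.34% became 6.26% without swim-up replicate 2, which let 26 sites be kept in place of 19. With a minimum of 10 reads the window kept 4 sites, none of them of the run, and had 0.568%. The minus strand held 88.7% to 89.7% of each whole library. What part the strand has in these levels was not tested beyond these counts.

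**Figure D4:**
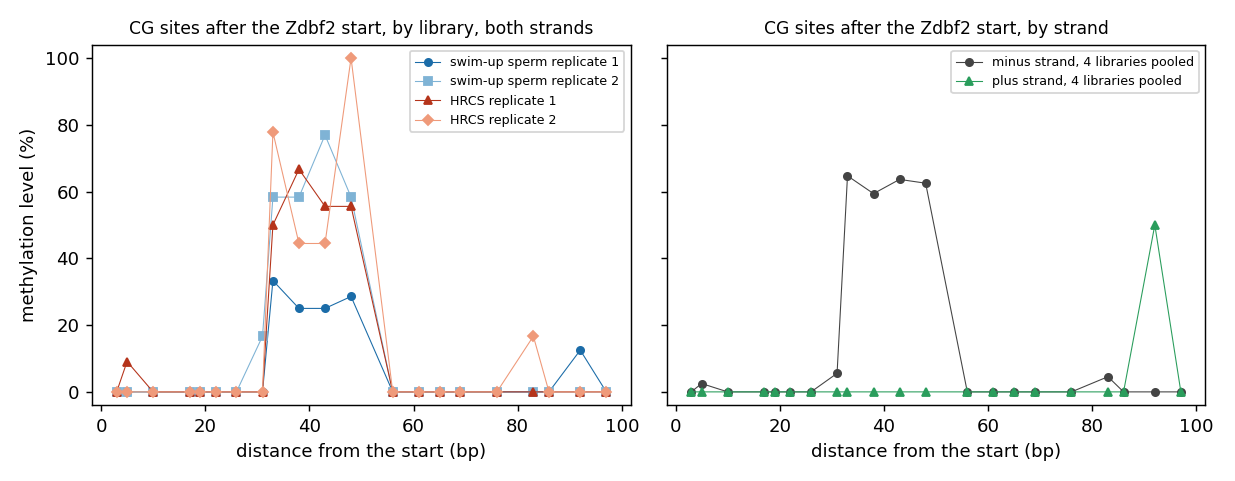
Methylation level (%) of CG sites in the first 100 bp after the canonical Zdbf2 start against the distance from it in bp, by library with both strands added (left) and by strand with the 4 libraries added (right). The sites at 33 to 48 bp are high on the minus strand only, and the single high plus-strand point, at 92 bp, rests on 1 methylated call of 2.

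Whether the methylation of these domains differed between HRCS and swim-up sperm was then compared. Swim-up sperm had a mean site level of 17.6% ± 0.584 in the Rasgrf1 domain and HRCS one of 17.2% ± 0.00461 (SD, n = 2), a difference of -0.351 percentage points for HRCS minus swim-up sperm (two-sided exact permutation test over libraries, p = 1.00). In the Zdbf2 domain it was 16.8% ± 0.0374 and 16.7% ± 0.0281, a difference of -0.137 points (exact permutation p = 0.333, the smallest possible). Neither direction held throughout. The Rasgrf1 difference turned to 0.754 points with levels from pooled calls and was -0.0855 without swim-up replicate 1. The Zdbf2 difference turned to 0.0505 and 0.00188 points with minimums of 10 and 20 reads and to 0.259 as a mean of window levels, and was -0.0191 without swim-up replicate 2. At 4.29% of Rasgrf1 sites and 6.95% of Zdbf2 sites the means of the fractions were more than 10 points apart, against 8.45% in the series. Between the 2 swim-up libraries such gaps were found at 13.3% and 10.8% of sites, and between the 2 HRCS libraries at 8.10% and 9.35%, against 14.8% and 13.6% in the series. Gaps between single libraries are wider by construction than gaps between means of 2.

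No window of either domain passed edgeR's quasi-likelihood test at a Benjamini-Hochberg adjusted p of 0.05, with 0 of 21 in the Rasgrf1 domain and 0 of 40 in the Zdbf2 domain, where the smallest adjusted p was 1.00. In the series, 12 of 316993 windows passed it (0.00379%). At an unadjusted edgeR p under 0.05 there were 2 Rasgrf1 windows and 3 Zdbf2 windows, against 4.63% of windows in the series. limma on the window levels also passed 0 in both domains (0% of the series), with 0 and 1 windows at an unadjusted p under 0.05, against 6.53% of the series. Fisher's exact test, run on the calls of each fraction added together, passed 0 as well (0.756% of the series), with 2 and 6 windows at an unadjusted p under 0.05, against 9.66% of the series. Fisher's test treats each call as independent, so its p-values leave out the spread between libraries. The libraries of the fractions did not overlap in 8 of 21 Rasgrf1 windows (4 with HRCS higher and 4 lower) and in 15 of 40 Zdbf2 windows (8 higher and 7 lower), against 32.7% in the series (16.6% higher and 16.1% lower).

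Among tested windows, which hold at least 3 kept sites, the difference of greatest size in the Rasgrf1 domain was in that from 89795001, 5 sites with 28.4% and 20.8% in swim-up sperm against 6.39% and 16.1% in HRCS. It was 13.4 points lower in HRCS by the means of 24.6% and 11.2%, at 79 to 125 calls per library, and did not pass edgeR's test (adjusted p = 1.00). The difference was -8.53 points without HRCS replicate 1 and ranged to -18.2 points without HRCS replicate 2. In the window next to it, from 89795201, swim-up replicate 1 had 15.6% and the other libraries 1.04% to 6.47%, and without that library the difference turned from -5.42 to 1.04 points. The other windows with the largest differences in this domain were those from 89763001 (5.66% and 1.67% in swim-up sperm, 8.03% and 8.58% in HRCS), 89922401 (98.2% and 97.8%, 98.6% and 93.4%) and 89805601 (1.30% and 2.31%, 0% and 0%). Without HRCS replicate 2 the difference of the window from 89922401 turned from -2.00 to 0.599 points. The window from 89805601, downstream of the Rasgrf1 start, had no methylated call in either HRCS library (edgeR's adjusted p = 1.00).

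Among tested windows of the Zdbf2 domain the largest differences were in the 2 intermediate windows above, from 63224201 (HRCS minus swim-up sperm 7.87 points, adjusted p of edgeR 1.00) and from 63299401 (5.47 points, adjusted p of edgeR 1.00). Without HRCS replicate 1 the first of these turned to -2.11 points. The second came to 1.82 points when swim-up replicate 1 was left out, to 2.70 when HRCS replicate 1 was, and to 14.8 with a minimum of 10 reads. The window from 63254001 had 100% and 95.6% in swim-up sperm against 93.9% and 91.9% in HRCS, and the window from 63222401 had 13.2% and 11.4% against 13.7% and 19.4%. In the window from 63295201 no methylated call was counted in swim-up sperm and HRCS had 3.61% and 3.64% (adjusted p of edgeR 1.00). Its levels rested on 72 to 121 calls per library, and with a minimum of 10 reads, which kept 4 of its 5 sites, the difference went from 3.62 to 0.694 points.

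**Figure D5:**
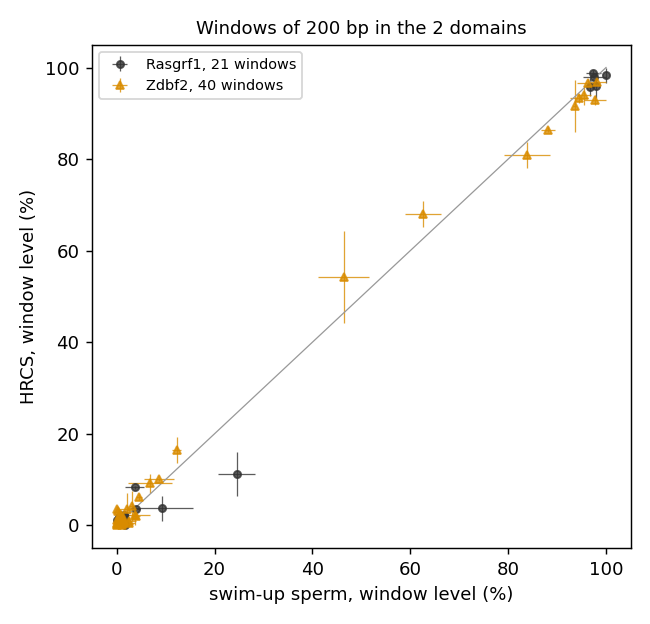
Level (%) of each 200 bp window with at least 3 kept sites in swim-up sperm (x axis) and HRCS (y axis) for the 21 Rasgrf1 and 40 Zdbf2 windows. Points are means of the 2 libraries of a fraction, bars run from the lower to the higher library, the line marks equal levels, and the Rasgrf1 point farthest from it is the window from 89795001 at 24.6% and 11.2%.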

How the data were processed

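Per the labels, 300 ng of DNA was fragmented to about 500 bp, enriched with SureSelect probes, tagged after bisulfite treatment (PBAT), amplified in 5 PCR cycles and sequenced as single reads of 100 cycles. Mapping was to mm9 with Bmap, as the study's methods state, and the authors deposited counts, methylated and total, for every CG site on each strand, with no normalization. Removal of duplicate reads is not given in the sources used here. The files name no columns. Of the 2 count columns, the one that is never the larger was read as methylated, and CG-dense windows were then low.

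Plus and minus strand counts were summed per CG site, and a site was kept from 5 reads per library upwards, so a single read can move a site by as much as 20 points. Site levels were averaged without weights over a window or domain. Windows of 200 bp with at least 3 kept sites were tested across the whole series with edgeR 4.0.16 (R 4.3.3) on methylated and unmethylated calls, with terms for the library, for methylation and for its interaction with HRCS, 1 dispersion without a trend and Benjamini-Hochberg adjustment. limma 3.58.1 and Fisher's exact test were alternatives. Domain means were tested by exact permutation over libraries, two-sided. Intervals are Wilson intervals at 95%. The software was Python 3.11.15 with matplotlib 3.10.9, numpy 2.4.6, scipy 1.17.1 and pandas 2.3.3. The models were also run on simulated data, whose outcome is not given here. The size of change that they could detect is therefore not stated.

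Of 32851 RefSeq promoter entries, 20355 held the 5 or more CG sites needed to search for their spacing in the tables, and 8 were placed once within the domains. The Gpr1 entries hold 2 CG sites each and were not placed. The reference genome used here is of another build, so no sequence was read from it by mm9 position.

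The domains and lists were chosen with earlier results of these data known. Named windows were those overlapping the control region, those within 500 bp of a start, and per domain the 5 with the largest difference, the 3 with the most kept sites and up to 3 of intermediate level. Named stretches were the 3 with the most sites per domain and class, and others were named after their values had been seen. The planned comparison of site levels in the control region had no value, since no site was kept there or in the windows overlapping it. Its pooled calls were used in its place, a choice made after seeing the data.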

Additional observations from a re-analysis of the deposited data

How the results depend on the processing

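Each fraction rests on 2 libraries, for which the exact permutation p cannot fall below 0.333, and nothing could be tested at the Rasgrf1 control region, where no alternative gave a value. The difference of the Rasgrf1 domain (HRCS minus swim-up sperm, -0.351 points) turned to 0.754 with levels from pooled calls and was -0.785 as a mean of window levels and -0.171 with a minimum of 20 reads. That of the Zdbf2 domain (-0.137) turned to 0.0505 and 0.00188 with minimums of 10 and 20 reads and to 0.259 as a mean of window levels, and was -0.332 with pooled calls and -0.0274 with strands kept separate. Without 1 library the differences ranged from -0.637 to -0.0855 and from -0.259 to -0.0191. The share of sites over 75% moved from 16.2% to 12.3%, 14.1% and 15.8% in the Rasgrf1 domain and from 13.2% to 11.9%, 9.70% and 13.7% in the Zdbf2 domain with minimums of 10 and 20 reads and with strands kept separate, and ranged from 16.0% to 17.9% and from 13.7% to 14.3% without 1 library. The count of windows past the adjusted p stayed at 0 in both domains under every alternative run, while the count over all windows moved from 12 to 6 and 2 with minimums of 10 and 20 reads, 4 with windows of 500 bp, 7 and 4 with at least 1 and 5 sites, 0 with limma and 2397 with Fisher's exact test, and ranged from 1 to 4 without 1 library. In these last fits the lone library of a fraction is assumed to vary like the others. Of 91 alternatives for the 10 windows with the largest differences, 3 changed direction, each without 1 library: the difference of the window from 89795201 ranged from -11.9 to 1.04, that of the window from 89922401 from -4.61 to 0.599 and that of the window from 63224201 from -2.11 to 17.9. Without 1 library the other differences ranged from 1.82 to 9.11 for the window from 63299401, 1.37 to 7.09 for that from 63222401, -7.08 to -2.66 for that from 63254001, 2.65 to 6.64 for that from 89763001 and -18.2 to -8.53 for that from 89795001. With a minimum of 10 reads the window from 63295201 went from 3.62 to 0.694 points and that from 89805601 from -1.80 to -0.794. Of 130 alternatives for the 21 windows given by their level, 4 moved it by more than the spread between replicates: 63319801 to 0.568% (10 reads) and 6.26% (without swim-up replicate 2), 63319201 to 0.989% (20 reads) and 89804401 to 1.91% (without swim-up replicate 1). The causes of these changes were not tested. The correlation of replicate deviations was -0.00176 over 316993 windows. Window deviations also hold the sampling error of the calls, so this value cannot show whether replicate numbers pair the libraries. With a replicate block, edgeR called 11 windows in the series and 0 in both domains, and the exact permutation p of the differences of -0.351 and -0.137 points was 1.00 and 0.5.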
